A study of Mus musculus with 6 samples.

Results

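DNA methylation and demethylation enzymes of the mouse testis were examined here as a group of 8 genes chosen by symbol out of 53700 counted: the maintenance methyltransferase Dnmt1 and its cofactor Uhrf1, the de novo methyltransferases Dnmt3a and Dnmt3b with their catalytically inactive partner Dnmt3l, and the dioxygenases Tet1, Tet2 and Tet3. All 8 were counted in every library. The series asks what loss of Msl3 does to spermatogenesis, and compared whole testes at postnatal day 45 from 3 mice labelled MSL3 WT and 3 labelled MSL3 cKO, for which the titles give a floxed conditional knockout of Msl3. The same strain entry, Msl3em1Forni/C57BL/6J, was given for both groups, and the recombinase that would act on the floxed allele, the cells it would act in and the deleted exons are not given in the sources used here. Msl3 encodes a chromodomain subunit of the male-specific lethal complex, which acetylates histone H4. The titles call the libraries biological replicates, so each is taken to be 1 mouse.

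Methyl groups are placed on cytosines of CpG dinucleotides. Dnmt1 copies existing marks to the new strand after replication, guided by Uhrf1, which binds hemimethylated CpG. Dnmt3a and Dnmt3b set new marks, a step that in the male germ line takes place in fetal prospermatogonia with the help of Dnmt3l and, at young retrotransposons, of Dnmt3c. The TET enzymes oxidise methylcytosine, which leads to its dilution at replication or its excision by Tdg. In the adult testis the replicating spermatogonia and early spermatocytes are the germ cells in which maintenance methylation is needed.

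Each library held 56991431 to 73766444 reads assigned to single genes on the strand opposite to the read, the column used throughout. Levels are CPM, read counts set to a common library size after scaling by the trimmed mean of M values (TMM), and folds are cKO over WT from an edgeR quasi-likelihood fit of 21902 genes. Msl3 itself lay between 15.9 and 18.9 CPM in the WT libraries and between 14.8 and 16.0 CPM in the cKO libraries. That is a log2 difference of -0.12 (SE 0.088), for which edgeR gave an adjusted p of 0.551. Gene counts sum all exons, so the Msl3 value neither shows nor denies a deletion of part of the gene, and "cKO" below means the libraries so labelled. Germ cell, Sertoli, Leydig, myoid, macrophage and endothelial markers were all present, and no marker of the 12 cell type lists was at 0 in every library. In whole testis, fewer cells of a type and less RNA per cell cannot be told apart.

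The stretches before the RefSeq transcription starts of these genes are shown because they differ in their own content of CpG, the substrate of the enzymes they encode. RefSeq (GRCm38.p6) lists 15 starts for the 8 genes. Over the 250 bases before 32851 listed starts of all genes the median was 6 CpG. Capitals mark CpG dinucleotides, and each sequence reads 5′ to 3′ on the strand of its gene.
Dnmt1 outermost start, chr9:20959889-20960138, minus strand: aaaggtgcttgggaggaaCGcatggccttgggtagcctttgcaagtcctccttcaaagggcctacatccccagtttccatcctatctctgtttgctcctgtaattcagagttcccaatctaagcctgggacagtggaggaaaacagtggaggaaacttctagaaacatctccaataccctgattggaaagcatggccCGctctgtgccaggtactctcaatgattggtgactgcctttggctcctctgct
Dnmt1 innermost start, chr9:20952624-20952873, minus strand: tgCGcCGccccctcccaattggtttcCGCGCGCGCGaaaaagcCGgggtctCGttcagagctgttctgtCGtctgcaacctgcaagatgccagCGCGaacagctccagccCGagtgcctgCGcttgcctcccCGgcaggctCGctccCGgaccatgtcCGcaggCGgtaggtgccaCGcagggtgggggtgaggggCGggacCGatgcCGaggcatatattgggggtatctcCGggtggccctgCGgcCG
Dnmt3a middle start, chr12:3806910-3807159, plus strand: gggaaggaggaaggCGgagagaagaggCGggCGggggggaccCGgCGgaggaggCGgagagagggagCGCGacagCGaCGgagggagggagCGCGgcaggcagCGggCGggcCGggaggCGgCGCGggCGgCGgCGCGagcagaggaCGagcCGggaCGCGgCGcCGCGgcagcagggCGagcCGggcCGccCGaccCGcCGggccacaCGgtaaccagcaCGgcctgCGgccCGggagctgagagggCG
Dnmt3a inner start, chr12:3891494-3891743, plus strand: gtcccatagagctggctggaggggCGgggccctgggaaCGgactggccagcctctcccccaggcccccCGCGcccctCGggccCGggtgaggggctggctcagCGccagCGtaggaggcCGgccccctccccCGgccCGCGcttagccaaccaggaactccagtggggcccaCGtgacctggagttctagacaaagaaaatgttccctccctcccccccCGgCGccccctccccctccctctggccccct
Dnmt3l innermost start, chr10:78055085-78055334, plus strand: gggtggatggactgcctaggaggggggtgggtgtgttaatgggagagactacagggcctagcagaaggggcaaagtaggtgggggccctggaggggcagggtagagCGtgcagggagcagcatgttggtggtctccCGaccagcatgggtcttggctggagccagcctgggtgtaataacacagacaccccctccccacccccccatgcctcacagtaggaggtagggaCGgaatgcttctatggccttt
Tet3, chr6:83441679-83441928, minus strand: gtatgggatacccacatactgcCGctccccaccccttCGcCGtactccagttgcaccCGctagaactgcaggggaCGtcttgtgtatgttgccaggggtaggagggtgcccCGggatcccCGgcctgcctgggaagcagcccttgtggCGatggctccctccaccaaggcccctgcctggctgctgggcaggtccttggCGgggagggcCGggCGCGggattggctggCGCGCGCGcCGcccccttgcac

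The outermost Dnmt1 window held 2 CpG, the middle one 7 and the innermost 26, a number reached by 9.59% of all windows. The innermost Dnmt1 window lies after the outermost and middle starts of the gene. The 3 Dnmt3a windows held 38, 40 and 15 from the outermost to the innermost, and the printed middle window overlaps the outermost. Of the 3 Dnmt3l starts none had more than 5 CpG, and the window printed had 3. Tet3 had 17, Tet1 15, and Tet2 51, a number that only 0.0670% of windows reached. The GC box GGGCGG, searched on both strands, was found in 11 of the 15 windows (73.3%) and in 32.7% of all windows. The E2F motifs TTTCCCGC and TTTGGCGC and the TATA box TATAAA, also searched on both strands, were in 0 of the 15 windows, against 0.895%, 0.417% and 12.4% of all windows. These are matches of letters only, some windows overlap, and the counts that follow are per gene and do not tell one start from another.

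Scaled by the length of all annotated exons, Uhrf1 was the most abundant of the 8 at 21.04 ± 2.16 CPM per kb (SD, n = 6 libraries), followed by Dnmt1 at 9.07 ± 0.911 CPM per kb. Dnmt3l came next at 2.36 ± 0.113, then Dnmt3b at 1.48 ± 0.186 and Dnmt3a at 1.17 ± 0.143 CPM per kb. The TET genes were lowest, with Tet3 at 0.428 ± 0.0855, Tet2 at 0.179 ± 0.0489 and Tet1 at 0.0732 ± 0.0200 CPM per kb. The maintenance pair thus lay above the de novo genes and these above the TET genes in every library. Libraries of neighbouring genes in this order overlapped only for Dnmt3b, which ran from 1.19 to 1.72, and Dnmt3a, which ran from 1.01 to 1.34 CPM per kb. With the length of the longest annotated transcript instead, these genes changed places, Dnmt3a being at 2.00 ± 0.246 and Dnmt3b at 1.75 ± 0.220 CPM per kb. Among the 21902 tested genes, 85.9% had a lower level per kb than Uhrf1 and 3.30% a lower one than Tet1.

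**Figure D1:**
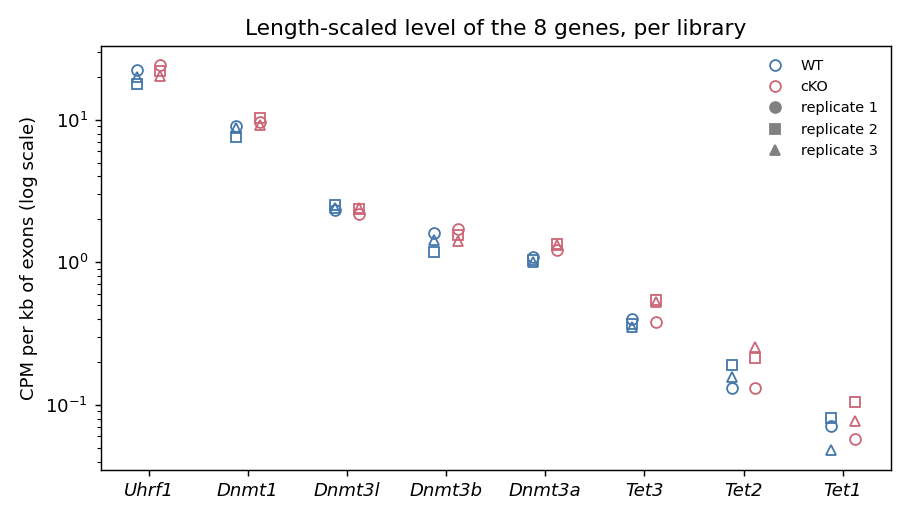
Level of each gene in CPM per kb of annotated exons (log axis), with genes on the horizontal axis from highest to lowest mean; each symbol is 1 library, blue for WT and red for cKO, with the shape giving the replicate number. Uhrf1 sits between 17.9 and 24.1 and Tet1 between 0.0479 and 0.105 CPM per kb, and only Dnmt3b and Dnmt3a overlap as neighbours.

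None of the 8 genes passed an edgeR adjusted p of 0.05, a threshold that 0.0183% of all tested genes passed. DESeq2 called 0 of the 7 for which it gave an adjusted p (none was given for Tet1), against 1.4% of all genes with one. In DESeq2 3 of the 8 had an unadjusted p under 0.05, against 11.8% of the genes tested by edgeR. At an unadjusted edgeR p under 0.05 there were 3 genes, Dnmt3a, Tet3 and Dnmt1, each with the higher mean in cKO, whereas 13.9% of all genes passed that limit, 7.33% with the higher mean in cKO and 6.54% with the lower. Without cKO replicate 2 that count was 1 of the 8, with 8.44% over all genes. The fold was above 1 for 7 of the 8, against 50.7% of all genes, and the median log2 fold change of the 8 was 0.23, against 0.0031 over all genes. For Dnmt1 and Dnmt3a the cKO libraries lay above every WT library, a pattern seen in 10% of all genes, and 18.9% of all genes had groups apart in either direction. The 6 libraries differ in a trend with transcript length that is described further on. After a correction for GC content and transcript length together, the count at an unadjusted p under 0.05 was 0 of 8, with 9.47% over all genes. The part of length alone was not tested.

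**Figure D2:**
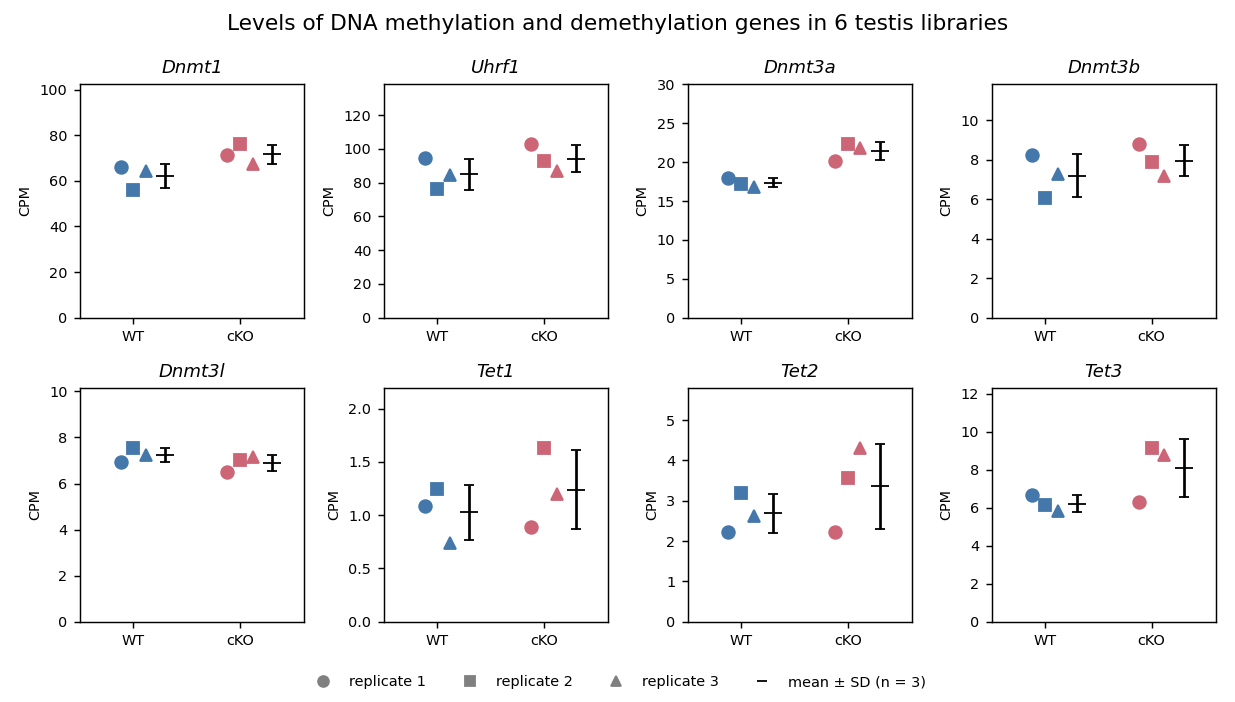
Level in CPM of each of the 8 genes (1 panel each, axes from 0) in WT (blue) and cKO (red) libraries, with the shape giving the replicate number and the black bar the mean ± SD of 3 libraries. Dnmt1 and Dnmt3a have all cKO symbols above all WT symbols, while for Tet3 only cKO replicates 2 and 3 stand above the WT range.

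Dnmt1 (ENSMUSG00000004099, GRCm38 chr9:20907209-20959888, minus strand), the maintenance methyltransferase, had 66.1, 56.2 and 64.3 CPM in WT replicates 1 to 3 and 71.4, 76.1 and 67.4 CPM in cKO replicates 1 to 3. All cKO libraries lay above all WT libraries, although cKO replicate 3 and WT replicate 1 were close. Means were 62.2 ± 5.29 CPM in WT and 71.6 ± 4.36 CPM in cKO (SD, n = 3 each). The fold was 1.15 with 95% limits of 1.02 and 1.30, with an unadjusted p of 0.0254 and an adjusted p of 0.313 (edgeR).

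Uhrf1 (ENSMUSG00000001228, chr17:56303321-56323486, plus strand), which recruits Dnmt1 to hemimethylated DNA, had 94.6, 76.2 and 84.3 CPM in WT and 103, 93.0 and 86.9 CPM in cKO. WT replicate 1 stood above 2 of the cKO libraries, so the groups overlapped. Its fold was 1.11 (95% limits 0.968 and 1.27) with an edgeR adjusted p of 0.479. The ratio of Uhrf1 reads to Dnmt1 reads, not scaled by length, was 1.43, 1.36 and 1.31 in WT and 1.44, 1.22 and 1.29 in cKO. These ratios overlapped between the groups.

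Dnmt3a (ENSMUSG00000020661, chr12:3806007-3914443, plus strand) showed the smallest unadjusted p of the 8. It had 18.0, 17.2 and 16.8 CPM in WT and 20.1, 22.3 and 21.8 CPM in cKO. All cKO libraries lay above all WT libraries, which differed little among themselves. Means were 17.3 ± 0.585 CPM in WT and 21.4 ± 1.14 CPM in cKO (SD, n = 3 each), and the fold was 1.24 (95% limits 1.10 and 1.38). Its unadjusted p was 0.00172 and its adjusted p 0.276 by edgeR, and the DESeq2 adjusted p was 0.0532. Dnmt3aos, an antisense RNA that shares 133 bases of exon with Dnmt3a on the other strand, had 0 to 2 reads a library.

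Dnmt3b (ENSMUSG00000027478, chr2:153649450-153687730, plus strand), the other de novo methyltransferase, had 8.23, 6.06 and 7.30 CPM in WT and 8.79, 7.88 and 7.19 CPM in cKO, with overlap. Its fold was 1.11 (95% limits 0.919 and 1.33) and its edgeR adjusted p 0.623. Dnmt3c, a rodent gene next to Dnmt3b that arose by its duplication, had 60, 97 and 98 reads in WT and 89, 70 and 86 in cKO. Reads that map to both are left out of such counts, so the values of this pair are uncertain by an amount not analysed here.

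Dnmt3l (ENSMUSG00000000730, chr10:78041947-78063622, plus strand), which stimulates Dnmt3a and Dnmt3b and binds unmethylated lysine 4 of histone H3, was the steadiest of the 8. It had 6.92, 7.52 and 7.22 CPM in WT and 6.51, 7.02 and 7.16 CPM in cKO, a coefficient of variation of 4.78% over the 6 libraries. Its fold of 0.954 (95% limits 0.828 and 1.10) was the only one of the 8 below 1, with an edgeR adjusted p of 0.788. Of the summed CPM per kb of Dnmt3a, Dnmt3b and Dnmt3l, Dnmt3l made up 46.2% to 53.1% in WT and 42.6% to 46.8% in cKO, which overlapped. The share of Dnmt3a was 20.8% to 21.8% in WT and 23.7% to 25.7% in cKO, without overlap. Dnmt3a has the longest transcript of these genes, and the shares were not corrected for the trend with transcript length described further on.

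Tet3 (ENSMUSG00000034832, chr6:83362373-83459084, minus strand) had the largest fold of the 8. Its levels were 6.69, 6.15 and 5.82 CPM in WT and 6.32, 9.11 and 8.78 CPM in cKO. Only cKO replicates 2 and 3 stood above the WT range, while cKO replicate 1 lay inside it. The fold was 1.29 (95% limits 1.06 and 1.59), with an unadjusted p of 0.0175 and an adjusted p of 0.306 (edgeR). Without cKO replicate 1, Tet3 had a log2 fold change of 0.52 and passed the threshold (edgeR adjusted p 0.0256), as did Dnmt3a at 0.35 (edgeR adjusted p 0.0403). In that fit 628 of all genes (2.82%) were called, and the other 6 genes of the group were not. Tet3 and Dnmt3a both have a longest annotated transcript over 8 kb. Genes of that length class had a median log2 fold change of 0.27 without cKO replicate 1, against 0.19 with all libraries. An unadjusted edgeR p under 0.05 was found for 62.6% of them in that fit, against 41.2% with all libraries.

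Tet2 (ENSMUSG00000040943, chr3:133463679-133545139, minus strand), which lacks the CXXC DNA-binding domain of Tet1 and of full-length Tet3, had 2.23, 3.21 and 2.62 CPM in WT and 2.22, 3.57 and 4.30 CPM in cKO. Again cKO replicate 1 was at the low end and replicates 2 and 3 at the top. Its fold of 1.24 had 95% limits of 0.895 and 1.72 and an edgeR adjusted p of 0.540. Tet1 (ENSMUSG00000047146, chr10:62804570-62908996, minus strand), known for its role in imprint erasure and meiotic gene activation in fetal germ cells, had 64, 81 and 46 reads in WT and 65, 91 and 70 in cKO.

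These Tet1 reads corresponded to 1.09, 1.25 and 0.740 CPM in WT and 0.891, 1.63 and 1.20 CPM in cKO. The 95% Poisson limits of the 46 reads of WT replicate 3 were 33.7 and 61.4, which cover counting error only. The fold of 1.19 had 95% limits of 0.820 and 1.74 (edgeR adjusted p 0.683), a range that holds both no difference and the fold of 1.24 seen for Dnmt3a. Within the summed CPM per kb of the TET genes, Tet3 made up 57.6% to 66.4% in WT and 61.3% to 66.7% in cKO. Tet2 made up 21.9% to 29.7% and 23.2% to 29.7%, and Tet1 8.67% to 12.6% and 9.03% to 12.2%. The makeup of the TET group therefore overlapped between WT and cKO for each of its genes.

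Reads on the strand of the gene itself, a column not used for the levels, stayed at 0 to 16 for each of the 8 genes in each library. They made up at most 6.19% of the reads of both strands, for Tet1 in cKO replicate 2, where they were 6 reads. Counting without regard to strand therefore changed the number of reads little, and 3 of the 8 had an unadjusted p under 0.05 in that count as well, against 13.2% of all genes.

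The fold of a gene moved with the length of its transcript in these libraries, and the 8 genes are mostly long. The longest annotated transcript is over 8 kb for 4 of them (Dnmt3a 9685, Tet1 14369, Tet2 9179 and Tet3 10904 bases) and 4 to 8 kb for Dnmt1 (5870) and Dnmt3b (4320), against a median of 2676 bases over the tested genes. Uhrf1 has 3586 and Dnmt3l 1822 bases. Among the 859 tested genes over 8 kb with a fitted mean of at least 1 CPM, the median log2 fold change was 0.19, 89.3% lay above 0 and 41.2% had an unadjusted edgeR p under 0.05. Among the 1988 genes under 1 kb the median was -0.16 and 16.5% lay above 0. The order of the 8 genes by fold follows these classes in part, as Dnmt3l, the shortest, is the one below 1.

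The libraries took part unequally in this trend. Genes over 8 kb had a median deviation from the mean of the 6 libraries of 0.23 in cKO replicate 2 and 0.13 in cKO replicate 3 on the log2 scale. In cKO replicate 1 it was -0.09, next to -0.10, -0.06 and -0.11 in WT replicates 1 to 3. Replicates 2 and 3 of cKO were also the libraries with the highest levels of Tet2 and Tet3. The folds of the 8 genes were fitted again after a correction that takes GC content and transcript length together, so it does not separate the 2.

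**Figure D3:**
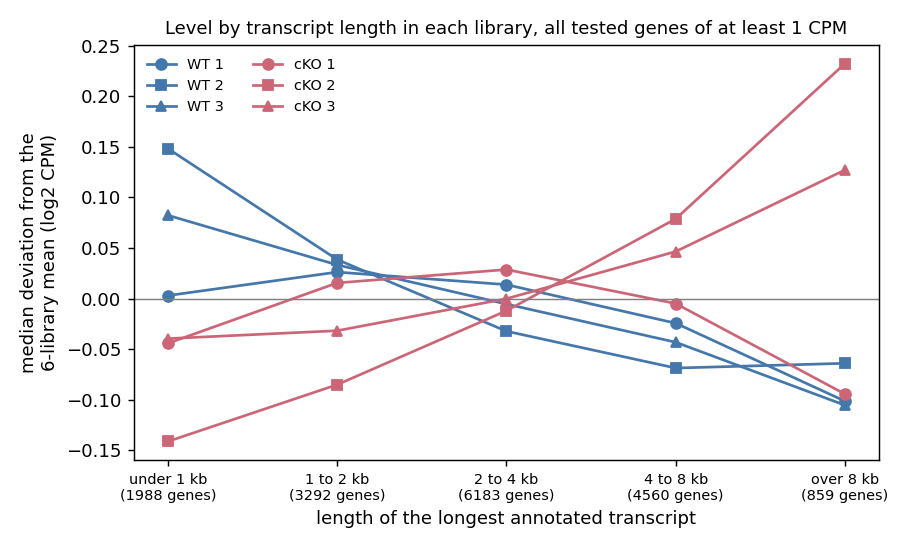
Median deviation of log2 CPM from the 6-library mean (vertical axis) for tested genes in 5 classes of transcript length (horizontal axis), with 1 line per library, blue for WT and red for cKO. For genes over 8 kb cKO replicates 2 and 3 reach 0.23 and 0.13, while cKO replicate 1 at -0.09 lies among the WT libraries.

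The correction of each library for GC content and transcript length, chosen after the data had been seen, brought the median of the class over 8 kb to 0.01. That median follows from the fit, which was made on these same libraries, and is no check of the correction. A difference of cKO that goes with GC content or length would be taken out as well. After it the log2 fold change was 0.10 for Dnmt3a, 0.12 for Tet3 and 0.06 for Dnmt1 (95% limits -0.05 to 0.24, -0.09 to 0.34 and -0.08 to 0.21). None of the 8 had an unadjusted edgeR p under 0.05 then, and the smallest was 0.179, for Dnmt3a. The median log2 fold change of the 8 was 0.08 after correction, against 0.23 before it. Signs did not change, with 7 of the 8 still above 0. Compared with the genes of its own length class, Dnmt3a lay above 77.9% of them before correction, Tet3 above 88.0%, Dnmt1 above 83.6%, Uhrf1 above 87.6% and Dnmt3l above 49.2%.

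**Figure D4:**
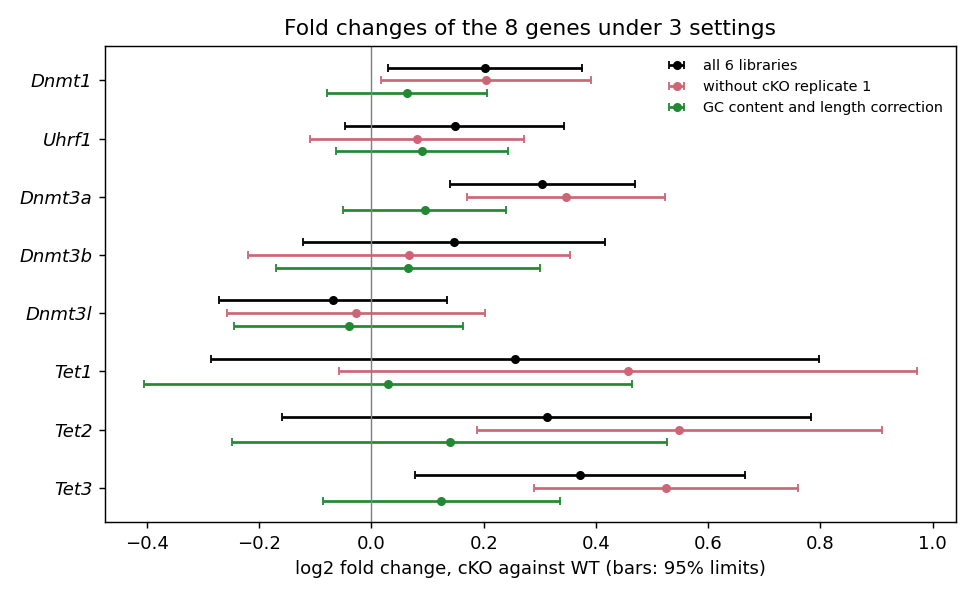
Log2 fold change of each of the 8 genes, cKO against WT (horizontal axis), with bars for 95% limits, from all 6 libraries (black), without cKO replicate 1 (red) and after the correction for GC content and transcript length (green). All 8 green bars cross 0, whereas without cKO replicate 1 the bars of Dnmt1, Dnmt3a, Tet2 and Tet3 do not.

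Spermatogonia and other dividing cells are the testis cells in which Dnmt1 and Uhrf1 are best known to be expressed, so their markers were set beside the 2 genes. The 12 spermatogonial markers summed to 183, 153 and 161 CPM in WT and 182, 161 and 173 CPM in cKO, with overlap, and 0 of the 12 had an unadjusted edgeR p under 0.05. WT replicate 2, the lowest in this sum, was also the lowest of the 6 in Dnmt1, Uhrf1 and Dnmt3b. WT replicate 1 and cKO replicate 1, the highest in the sum, were the highest in Uhrf1 and Dnmt3b. Dnmt1 did not share this, being highest in cKO replicate 2 (76.1 CPM), where the sum was only 161 CPM. The 8 markers of proliferation summed to 483 to 519 CPM in WT and 543 to 561 CPM in cKO, without overlap, a sum made up mostly of Top2a, which is also abundant in spermatocytes. Of these 8, Mki67 and Top2a, named after their values were seen, had an unadjusted p under 0.05 and none an adjusted p under 0.05 (edgeR). The part of cell makeup in the levels of the 8 enzymes was not tested.

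Of the other cell types, endothelial markers summed to 41.0 to 41.7 CPM in WT and 42.6 to 51.6 CPM in cKO, without overlap. In cKO replicates 1 to 3 the endothelial sum was 42.6, 51.6 and 51.2 CPM. Its largest part was Vwf, with means of 21.4 CPM in WT and 25.5 CPM in cKO. Round spermatid markers summed to 1284 to 1407 CPM in WT and 1227 to 1280 CPM in cKO, also without overlap. No marker of any list had an edgeR adjusted p under 0.05. The marker sums were not corrected for GC content or transcript length. The 10 macrophage markers, set beside Tet2 because that gene is known for its role in myeloid cells, summed to 414 to 427 CPM in WT and 387 to 417 CPM in cKO. In 9 of these 10 the fold was below 1, Mrc1 being the exception. An unadjusted edgeR p under 0.05 was found for 5, namely for Mrc1, higher in cKO, and for 4 with the lower mean in cKO. The fold of Tet2 was above 1. Most of that sum was Aif1, which spermatids also express.

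The wider machinery was followed in 7 lists of 87 genes, of which 85 had enough reads to be tested; Dppa3 and Mat1a did not. By edgeR, 0 of the 85 passed an adjusted p of 0.05, and DESeq2 called 0 too. An unadjusted p under 0.05 was found for 15 (17.6%), 10 with the higher mean in cKO and 5 with the lower, against 13.9% of all genes. Groups were apart for 27 of the 85, of which 22 were higher in cKO and 5 lower, against 10% and 8.85% of all genes.

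Among the maintenance partners, Hells, a remodeller that opens chromatin for methylation, had 48.7, 43.0 and 46.8 CPM in WT and 52.1, 49.7 and 49.2 CPM in cKO, without overlap, but with an edgeR adjusted p of 0.445. Usp7, a deubiquitinase that stabilises Dnmt1 and Uhrf1, had a fold above 1 by 0.20 on the log2 scale (SE 0.075), and Hdac2 by 0.16 (SE 0.070), with edgeR adjusted p of 0.307 and 0.349. Uhrf2, the paralog of Uhrf1, differed by 0.06 (SE 0.078) with overlap. Trdmt1, which methylates transfer RNA and was once called Dnmt2, differed by -0.01 (SE 0.096), and Dnmt3c by -0.06 (SE 0.19). Of the 12 genes of this list, 9 had a fold above 1 and the median log2 fold change was 0.09, against 0.20 for Dnmt1.

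Readers of methyl-CpG had a median of 0.11, with 8 of 11 above 0. Mbd2 and Mbd1 differed by 0.10 (SE 0.067) and 0.14 (SE 0.072), each without overlap. Mbd3l1, a testis-expressed relative that lacks the methyl-binding domain, had the opposite sign, at 70.4 ± 12.7 CPM in WT and 58.0 ± 3.33 CPM in cKO (SD, n = 3 each), with overlap and an edgeR adjusted p of 0.313. Mbd4, a glycosylase that binds methyl-CpG, differed by -0.09 (SE 0.12). Once GC content and length were corrected for, the log2 fold change was -0.10 for Mbd3l1, 0.10 for Mbd2 and 0.09 for Mbd1.

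Genes that act after or beside the TET enzymes had a median of -0.06, and 12 of 20 lay below 0. None was called, and the list was not tested against the TET genes. Tdg, the glycosylase that removes oxidised methylcytosine, had 2.50, 2.77 and 2.91 CPM in WT and 2.96, 3.15 and 3.27 CPM in cKO, without overlap (edgeR adjusted p 0.495). Ogt, the glycosyltransferase that binds TET proteins, differed by 0.06 (SE 0.12). Gadd45g, a stress-induced gene linked to demethylation, had 5.38 ± 0.131 CPM in WT and 4.44 ± 0.695 CPM in cKO (SD, n = 3 each), and Idh1, which makes the TET cosubstrate 2-oxoglutarate, 68.9 ± 2.68 and 62.9 ± 4.70 CPM. Their edgeR adjusted p were 0.350 and 0.439.

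Genes of piRNA-guided methylation, which directs Dnmt3l and its partners to retrotransposons in fetal germ cells, had a median of 0.12. Piwil4, the fetal nuclear Piwi protein, had 15 to 40 reads a library. Tex15, its effector, had 124, 156 and 140 CPM in WT and 136, 206 and 184 CPM in cKO, so that only cKO replicates 2 and 3 stood above WT, as for Tet3. Pld6, which helps make primary piRNAs, had 75.0, 74.9 and 76.9 CPM in WT and 70.0, 61.2 and 63.2 CPM in cKO, without overlap (edgeR adjusted p 0.288). Tdrd9, a helicase of the same pathway, differed by 0.16 (SE 0.064). With the correction for GC content and length the log2 fold change was 0.07 for Tdrd9, -0.21 for Pld6 and 0.24 for Tex15.

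Histone methylation enzymes tied to DNA methylation had 11 of 12 genes above 0, a median of 0.12 and 5 at an unadjusted p under 0.05, where all genes had 50.7% above 0 and 13.9% at such a p. Setd2, which writes the lysine 36 mark that Dnmt3a and Dnmt3b read, had 68.4, 73.2 and 72.3 CPM in WT and 73.6, 99.5 and 90.8 CPM in cKO. Kdm2a, a CXXC-domain demethylase of the same lysine, had 70.2, 66.9 and 68.2 CPM in WT and 73.9, 88.1 and 81.3 CPM in cKO. Both had an edgeR adjusted p of 0.288, and in both cKO replicate 1 was close to WT. After the correction for GC content and length the log2 fold change was 0.16 for Setd2, against 0.30 before it, and 0.07 for Kdm2a, against 0.24. In the fit without cKO replicate 1 the genes called in the 7 lists were Setd2, Kdm2a, Tex15, Pld6 and Nsd1. The last was named after its values were seen, and 2.82% of all genes were called in that fit.

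In the S-adenosylmethionine cycle, which supplies the methyl donor, 5 of 10 genes lay above 0 and the median was 0.04. Bhmt, which remethylates homocysteine with betaine, had the smallest unadjusted p of all 7 lists, 0.00356. It had 20.9, 22.4 and 21.8 CPM in WT and 16.7, 17.1 and 19.4 CPM in cKO, all lower in cKO, with a log2 fold change of -0.29 (SE 0.081) and an edgeR adjusted p of 0.276. Mtr, which does the same step with folate, differed by 0.17 (SE 0.071) without overlap. Corrected for GC content and length, the log2 fold change was 0.02 for Mtr and -0.30 for Bhmt.

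The last list held germline genes whose promoters are known to be methylated and silent in somatic cells. Dazl had 194, 178 and 199 CPM in WT and 202, 205 and 215 CPM in cKO, without overlap (edgeR adjusted p 0.439). Mael had 1443 ± 111 CPM in WT and 1294 ± 14.0 CPM in cKO (SD, n = 3 each), also without overlap and with the lower level in cKO (edgeR adjusted p 0.350). Sycp1 differed by 0.14 (SE 0.071), and the median of the 12 was 0.03, with 8 above 0. Corrected for GC content and length, the log2 fold change was -0.06 for Mael, 0.20 for Dazl and 0.22 for Sycp1.

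**Figure D5:**
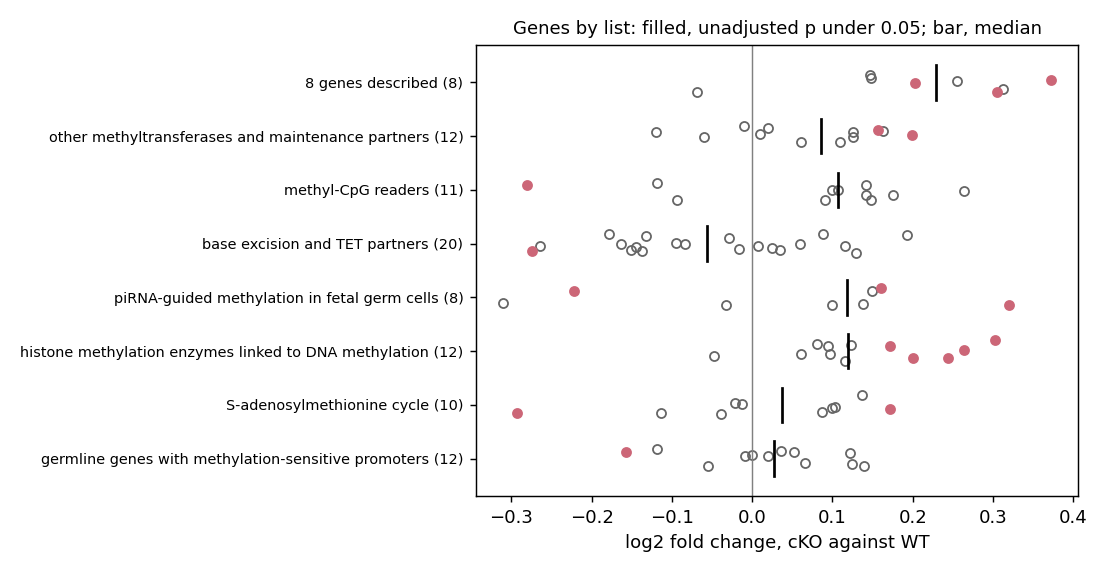
Log2 fold change, cKO against WT (horizontal axis), of each tested gene of the 8 described and of the 7 wider lists (rows, number tested in parentheses); filled symbols have an unadjusted edgeR p under 0.05, the bar is the list median and the vertical spread of points has no meaning. The 8 genes have a median of 0.23, the base excision and TET partners one of -0.06.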

How the data were processed

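Total RNA of 6 whole testes was sequenced with single-end reads of 75 bp, per the labels' protocols. The deposited values are raw counts of reads per gene, unnormalised, in a 4-column form that STAR writes. STAR, HTSeq, DESeq2 and the build mm10 are named in the submitters' processing notes; versions, annotation release and library kit are not given in the sources used here. Opposite-strand counts were used (96.0% to 96.2% of both strand columns). Reads outside single genes (14.8% to 16.7% of a library) were left out. Symbols, positions and lengths came from GENCODE M21 (GRCm38, the same build), which matched 52147 of 53700 identifiers.

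The main test was the quasi-likelihood F test of edgeR 4.0.16 (R 4.3.3) on the 2 groups with no further terms. It used TMM scaling, kept genes by filterByExpr (minimum count 10) and adjusted p by Benjamini-Hochberg over 21902 genes, with a threshold of 0.05. DESeq2 1.42.0 was an alternative, and the others are in the closing section. Log2 CPM deviations used an added 0.25 CPM. The fit was tested on simulated counts with known changes. Each library is taken to be 1 mouse, as its title calls it a biological replicate. On that reading p-values measure the spread between 3 mice a group, with the variance of each gene drawn towards the trend over the tested genes. Named genes are the 8, 12 fixed partners (1 is not reported here), the 2 of lowest p in each list, and the 3 most like each of the 2 most variable of the 8. Members and lists were chosen with earlier results of these data known.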

Additional observations from a re-analysis of the deposited data

How the results depend on the processing

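Among the 8 genes, 0 passed the threshold with edgeR on all libraries, and 0 under each other alternative except the fit without cKO replicate 1, so that the fits without a library ran from 0 to 2 (Dnmt3a and Tet3). Genes at an unadjusted p under 0.05, 3 of 8, numbered 0 once GC content and length were corrected for, and 1 to 4 in the fits without a library, the lowest without cKO replicate 2. Over all genes the share was 9.47% with the correction and 6.36% to 18.2% in the fits without a library. Of the wider lists 0 genes passed, 3 did without a filter on low counts (Tex15, Setd2 and Mbd3l1), and 0 to 5 in the fits without a library, the highest without cKO replicate 1. Over all genes 757 of 36605 passed without that filter and 628 of 22255 (2.82%) without cKO replicate 1. The cause of these changes was not tested. The 8 genes kept the sign of their fold in all 15 alternatives each. With the correction the sign turned for Trdmt1 (0.0094). In the fits without a library Dnmt3c ran from -0.226 to 0.0463, Trdmt1 from -0.0739 to 0.0357 and Ogt from -0.0144 to 0.1907. Leaving out 1 library moved the log2 fold change by over 1.5 times for 6 of the 8 genes and for 16 of the 25 other named genes. For Tet1 it ran from 0.0156 (without cKO replicate 2) to 0.46 (without cKO replicate 1), for Tet2 from 0.10 (without cKO replicate 3) to 0.55 (without cKO replicate 1), for Dnmt3b from 0.0359 (without WT replicate 2) to 0.26 (without WT replicate 1) and for Uhrf1 from 0.075 to 0.23 in the same fits. For Dnmt3l it was -0.0277 without cKO replicate 1 and for Dnmt1 0.13 without WT replicate 2.

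Deviations from the group mean correlated between libraries of the same number at 0.391, 0.265 and -0.089. WT replicates 1 and 2 each correlated best with the cKO library of their own number. In contrast, cKO replicate 3 correlated best with WT replicate 2 (0.211). The labels state no pairing, and so few correlations cannot decide whether the replicate numbers pair the libraries. In a fit with the replicate block 0 of the 8 and 0 of the wider genes passed, 4 of the 8 had an unadjusted p under 0.05 (18.7% of all genes, against 13.9% without the block), and 49 genes of the whole table passed instead of 4. The whole table gave 757 calls without a filter on low counts, 193 with DESeq2, 628 without cKO replicate 1 and 116 without WT replicate 1. Tet1 had the fewest reads of the 8, 46 to 91 a library; counting error and spread between mice were not separated.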

Other observations

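Tet2 and Tet1 varied most of the 8 genes over the 6 libraries, with SDs of log2 CPM of 0.356 and 0.322, and the genes with the most similar profile were sought among 10037 genes of at least 10 CPM. The measure was the root mean square difference between centred log2 CPM over the 6 libraries. Nearest to Tet2 was Col1a1, a fibrillar collagen gene, at 0.0498, followed by Rnf213, a very large ubiquitin ligase, at 0.118, and Kmt2c, a lysine 4 methyltransferase of histone H3, at 0.124. The median over the genes searched was 0.343. Col1a1 had 16.5, 23.5 and 17.6 CPM in WT and 15.7, 25.6 and 29.2 CPM in cKO. Its lowest library was cKO replicate 1 and its highest cKO replicate 3, as for Tet2. Such a match follows from the search, which picked Col1a1 for its likeness to Tet2 in these libraries. Nearest to Tet1 were Zbtb34, Efcab5 and Prr11, at 0.130, 0.131 and 0.133. None of these 6 genes passed the edgeR threshold, with adjusted p from 0.335 to 0.518.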
